A study of Homo sapiens with 27 samples.

Results

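The 8 genes described here carry long-chain fatty acids into a cell and into its mitochondria and carry out steps of their oxidation: SLC27A1, CPT1A, SLC25A20, CPT2, ACADVL, ACADM, HADHA and HADHB. They were taken from the deposited expression table by their symbols, and all 8 were found among its 13459 genes. The list was drawn up with results of these data in view, and SLC27A1 was chosen by its rise with Torin in each genotype, so its Torin responses are given as a description without a test. The cells were 501mel, an established human melanoma line in which the lineage factor MITF is high. RNA 3′ ends were sequenced in 9 groups labelled with 3 libraries each. Unedited (WT) cells were not treated (WT CTRL, labelled as non-treated), held for 12 h in HBSS, a salt solution that has glucose but lacks amino acids, or exposed for the same time to Torin, which blocks the kinase mTOR, at 250 nM. Cells edited in TFE3 (TFE3 KO), in TFEB (TFEB KO) or in the pair (DKO) were cultured for 12 h as controls (CTRL) or with Torin at that dose. The edited genes encode transcription factors of the MITF family. Each KO genotype was a single clone made with Cas9, so clone and genotype cannot be told apart, and WT CTRL carried no 12 h label whereas the KO controls did. The labels do not say that the libraries of a group came from separate cultures, so p-values measure the spread between these libraries, which may be technical.

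The columns labelled WT HBSS replicate 3 and WT Torin replicate 1 were identical in every row. In this shared column TFEB was at 23.9 and MITF at 1500. The other WT HBSS libraries had TFEB at 28.0 to 30.4 and MITF at 1392 to 1454. The other WT Torin libraries had TFEB at 4.27 to 5.63 and MITF at 732 to 735. For both genes the shared column lay near WT HBSS and far from WT Torin, so fits that keep it as WT Torin may mix treatments. Both columns were left out, so WT HBSS and WT Torin had n = 2, each other group had n = 3, and 25 libraries were used. These held 3963182 to 6312317 reads in genes, and 3 reads corresponded to 0.460 to 0.711 units of the normalised read count, the deposited value on the CPM scale. The melanocyte markers were present at 7 of 7, with a summed value of 6196 to 6392 in WT CTRL, 14300.2 to 14453 in WT HBSS and 8031 to 8269 in WT Torin. The KO controls had sums of 5123 to 6395 and the Torin-treated KO libraries 7043 to 9185. The part of this shift in the results below was not tested. Of the fibroblast markers COL1A1 and LUM were in the table with a summed value of at most 6.62, of the immune markers CD68 was there at 29.5 to 74.2, and the keratinocyte, adipocyte and hepatocyte markers had no row. Of the edited genes, TFE3 was at 24.0 ± 0.285 (SD, n = 3) in WT CTRL, 6.30 ± 1.27 in TFE3 KO CTRL and 6.35 ± 0.470 in DKO CTRL. TFEB was at 3.25 ± 0.827 in WT CTRL, 1.11 ± 0.485 in TFEB KO CTRL, 0.661 ± 0.457 in DKO CTRL and also low, at 0.681 ± 0.764, in TFE3 KO CTRL. A small edit need not change the count at a 3′ end, so these levels check the labels only in part.

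Long-chain fatty acids enter cells with the help of transport proteins such as SLC27A1 (FATP1) and are activated to acyl-CoA. CPT1A at the outer mitochondrial membrane transfers the acyl group to carnitine, which is the controlled step of the pathway and is inhibited by malonyl-CoA. SLC25A20 carries acylcarnitine across the inner membrane, and CPT2 re-forms acyl-CoA inside. ACADVL and ACADM are dehydrogenases that open the oxidation cycle for very long and medium chains, and HADHA and HADHB are the subunits of the trifunctional protein, which completes it for long chains. Melanoma cells can draw on this pathway when nutrients are short.

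Unless stated otherwise, a log2 fold change is the limma estimate on log2(normalised read count + 1), and an adjusted p is the limma p after Benjamini-Hochberg adjustment over 12991 genes. A gene passed at an adjusted p under 0.05 and passed with the fold limit when the absolute log2 fold change was also at least 1. All 8 members passed the filter for testing, which asked for 3 or more libraries with a value of 1 or above, CPT1A through its WT and TFEB KO libraries. In a bulk library a lower share of expressing cells and less RNA per cell cannot be told apart.

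SLC27A1, the uptake transporter, was low and even without Torin. In WT CTRL it had normalised read counts of 9.53, 13.7 and 9.37, and in WT HBSS 11.3 and 11.7. In WT Torin the counts were 26.5 and 30.3, above every library without Torin. The KO controls read 8.65, 8.89 and 9.98 in TFE3 KO, 7.97, 12.7 and 10.3 in TFEB KO, and 12.8, 9.06 and 11.3 in DKO. With Torin the same clones read 25.4, 23.4 and 24.97 in TFE3 KO, 19.7, 22.5 and 25.04 in TFEB KO, and 22.5, 27.3 and 33.5 in DKO. In each genotype all Torin libraries thus lay above all libraries of its control, which is the pattern that brought the gene onto the list.

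The plot of values by library shows this separation in every genotype for SLC27A1 and for no other member. Some other members separated in some genotypes only.

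**Figure D1:**
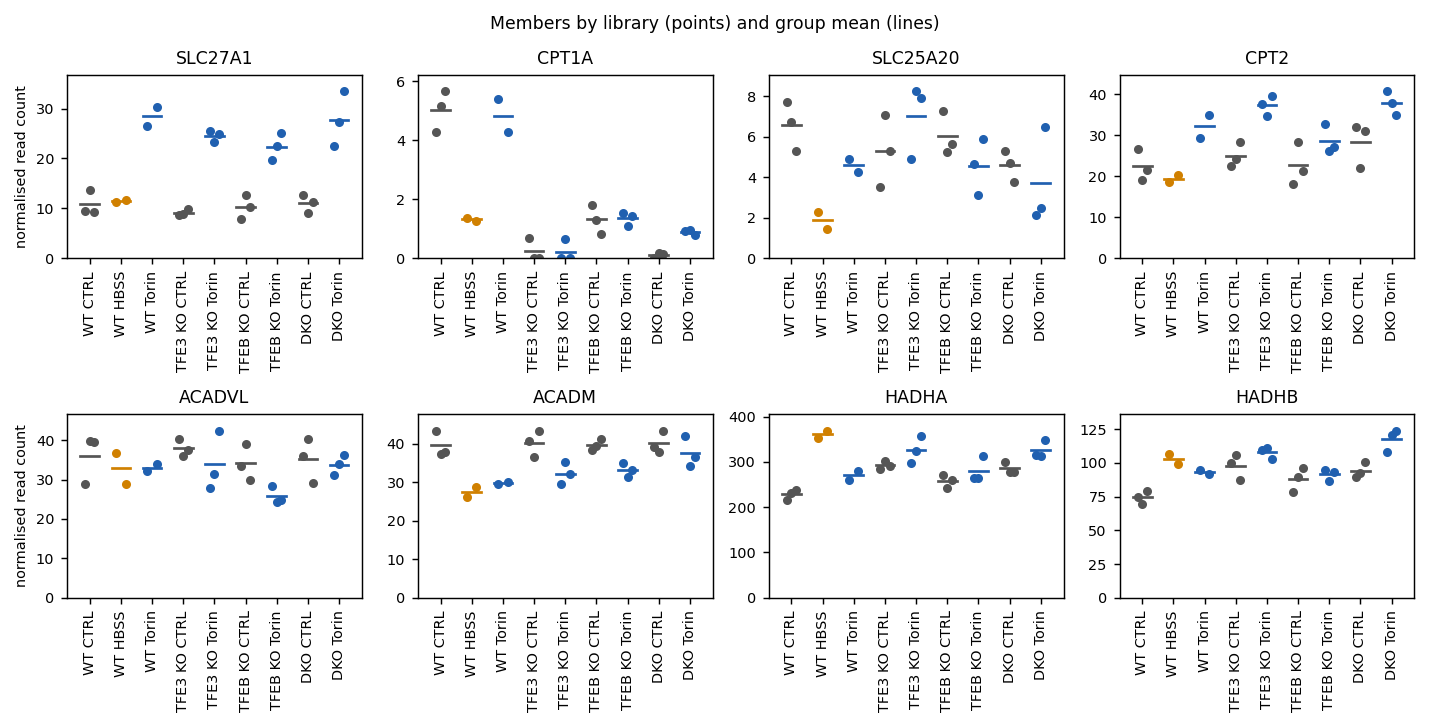
Normalised read count of each member (y axis, from 0) in 25 libraries, grouped along the x axis by genotype and treatment, with libraries as points and group means as lines (grey without treatment, orange HBSS, blue Torin). SLC27A1 lies at 19.7 to 33.5 in the Torin libraries and at 7.97 to 13.7 in the others, while CPT1A is above 4 only in WT CTRL and WT Torin.

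Described without a test, the Torin log2 fold changes of SLC27A1 were 1.33 ± 0.19 (SE) in WT, 1.33 ± 0.17 in TFE3 KO, 1.06 ± 0.17 in TFEB KO and 1.25 ± 0.17 in DKO. In order, the group means ran from 28.4 in WT Torin through 27.7 in DKO Torin, 24.6 in TFE3 KO Torin and 22.4 in TFEB KO Torin to 11.5 in WT HBSS. They ended with 11.04 in DKO CTRL, 10.9 in WT CTRL, 10.3 in TFEB KO CTRL and 9.18 in TFE3 KO CTRL. Neighbouring groups overlapped at each step of this order except between TFEB KO Torin and WT HBSS. With the duplicated column counted as a WT Torin library, where its SLC27A1 value is 9.47, the WT log2 fold change was 0.83.

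HBSS did not move SLC27A1 past the threshold in WT (log2 fold change 0.10 ± 0.19, adjusted p = 0.71). Without Torin the clones also gave no difference from WT that passed, with log2 fold changes of -0.20 in TFE3 KO (95% interval -0.55 to 0.14), -0.07 in TFEB KO (-0.41 to 0.28) and 0.03 in DKO (-0.32 to 0.37). Under Torin the differences from WT, given without a test, were -0.20, -0.33 and -0.05. SLC27A1 lies on chromosome 19 from 17468769 to 17506168 (hg38, + strand, GENCODE 44). The gene PGLS-DT lies on the other strand within 1000 bases of its 3′ end, and since the strand setting of the counting is not given in the sources used here, reads of the pair cannot be told apart.

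The genes most like SLC27A1 over the 25 libraries were EXOC3-AS1 (Pearson r = 0.9495), BIRC7 (0.942), an inhibitor of apoptosis, and SPATA20 (0.942), out of 9811 genes with a mean of at least 5. These correlations are a description over libraries that share treatments and normalisation. BIRC7 ran at 105 ± 8.05 (SD, n = 3) in WT CTRL and 260 ± 1.78 (n = 2) in WT Torin. EXOC3-AS1 ran at 10.5 ± 2.49 and 20.6 ± 0.996, and SPATA20 at 31.2 ± 1.13 and 57.6 ± 2.38.

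The RefSeq start-site window of SLC27A1, 250 bases before to 50 after the start (GRCh38.p14, chr19:17470274-17470573, + strand), is printed because the gene was chosen by its rise with Torin. Capitals mark CCAAT and GGGCGG, searched on both strands.
SLC27A1: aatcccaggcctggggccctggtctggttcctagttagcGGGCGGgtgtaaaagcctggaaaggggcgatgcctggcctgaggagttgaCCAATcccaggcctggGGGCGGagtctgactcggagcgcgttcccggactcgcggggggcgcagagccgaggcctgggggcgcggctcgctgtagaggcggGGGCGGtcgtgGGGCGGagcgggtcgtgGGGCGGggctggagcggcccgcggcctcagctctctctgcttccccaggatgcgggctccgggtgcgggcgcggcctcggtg
The window holds GGGCGG at 5 places and CCAAT at 1. Of 35116 RefSeq windows of the same length, 45.0% hold GGGCGG and 34.6% hold CCAAT. Windows of all 8 members were found, 9 in all because ACADVL has 2. None of them holds CACGTG or CATGTG, the 6-letter E-boxes that MITF, TFE3 and TFEB can bind, which occur in 7.26% and 11.1% of all windows. GGGCGG was found in the windows of SLC27A1, CPT2, ACADM, SLC25A20, HADHA, HADHB and 1 of the ACADVL windows, and not in that of CPT1A. A match is only a run of letters, and the lack of a match in this window says nothing of the factors. From its ChIP-seq the study reported binding of each MITF family member at SLC27A1.

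CPT1A, the controlled entry step into mitochondria, was the member that differed most between genotypes. Its values were 4.27, 5.15 and 5.66 in WT CTRL, which were 26, 26 and 29 reads. In TFEB KO CTRL they were 1.82, 1.31 and 0.829, in TFE3 KO CTRL 0.706, 0 and 0, and in DKO CTRL 0, 0.174 and 0.157. Every KO control library was thus below every WT control library, and the share of all genes that separated in this way was not counted. CPT1A lies on chromosome 11 from 68754620 to 68844410 on the - strand, with no annotated neighbour within 1000 bases of its 3′ end.

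The fall was present in each clone without drug. Summed over libraries, WT CTRL had 81 reads, TFEB KO CTRL 20, TFE3 KO CTRL 4 and DKO CTRL 2. Scaled for depth, CPT1A was 3.93-fold lower in TFEB KO (95% exact interval 2.38 to 6.76), 23.2-fold lower in TFE3 KO (8.70 to 87.0) and 46.2-fold lower in DKO (12.4 to 388). These intervals cover counting error only. CPT1A met the filter through WT and TFEB KO libraries, and no TFE3 KO or DKO library reached a value of 1. The p-values that follow for TFE3 KO and DKO are therefore given as a description. The log2 fold changes were -1.39 ± 0.27 in TFEB KO (limma adjusted p = 0.00031), -2.33 ± 0.27 in TFE3 KO (adjusted p = 9.2e-09) and -2.44 ± 0.27 in DKO (adjusted p = 2.1e-09), where the added 1 draws low values together. With 0.1 added instead, they were -1.90, -4.67 and -4.73, and the TFEB KO difference no longer passed (adjusted p = 0.070), while it passed with edgeR on the recovered reads (adjusted p = 0.0052).

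The single knockouts also differed from each other without drug, with CPT1A lower in TFE3 KO than in TFEB KO by 5.90-fold in summed reads (1.98 to 23.7) and by a log2 fold change of -0.94 ± 0.27 (limma adjusted p = 0.0073). Without TFEB KO CTRL replicate 1 this difference did not pass (-0.78, adjusted p = 0.054).

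With Torin CPT1A did not pass in WT (95% interval of the log2 fold change -0.67 to 0.57) or TFEB KO (-0.51 to 0.59), and TFE3 KO had too few reads to compare. WT Torin libraries read 5.39 and 4.27, TFEB KO Torin libraries 1.55, 1.099 and 1.43, and TFE3 KO Torin libraries 0, 0.668 and 0. In DKO the control libraries had 0, 1 and 1 reads and the Torin libraries 6, 5 and 4, at values of 0.923, 0.948 and 0.787. The ratio of Torin to control in DKO was 8.25 in summed reads (1.92 to 74.4), and the log2 fold change was 0.77 ± 0.27 (limma adjusted p = 0.017). Without DKO CTRL replicate 1 the adjusted p was 0.061. The Torin response of DKO was not shown to differ from that of WT in the test of the difference itself (0.82 ± 0.41, 95% interval -0.01 to 1.64, limma adjusted p = 0.52).

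Under Torin the differences between clones and WT kept their sign. CPT1A was lower than in WT Torin by 3.59-fold in TFEB KO (2.103 to 6.26), 22.6-fold in TFE3 KO (7.201 to 114) and 5.43-fold in DKO (2.94 to 10.6). The log2 fold changes were -1.30 (adjusted p = 0.0019), -2.29 (adjusted p = 2.7e-07) and -1.62 (adjusted p = 0.00017). With 0.1 added, the adjusted p was 0.14 for TFEB KO and 0.055 for DKO. These comparisons use the same WT libraries for all 3 clones, as the comparisons without drug do. For TFE3 KO and DKO the p-values are again a description, because CPT1A met the filter through other libraries.

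CPT1A also fell with HBSS in WT, to 1.38 and 1.26, which is 3.79-fold lower in summed reads (2.05 to 7.63; 12 against 81 reads) and a log2 fold change of -1.37 ± 0.31 (limma adjusted p = 0.00020). With 0.1 added the adjusted p was 0.055, and with edgeR on the recovered reads it was 0.0059. By mean level the groups ran WT CTRL (5.03), WT Torin (4.83), TFEB KO Torin (1.36), TFEB KO CTRL (1.32), WT HBSS (1.32), DKO Torin (0.886), TFE3 KO CTRL (0.235), TFE3 KO Torin (0.223) and DKO CTRL (0.110). Neighbours did not overlap between WT Torin and TFEB KO Torin, between WT HBSS and DKO Torin, and between DKO Torin and TFE3 KO CTRL, and overlapped at the other steps.

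NANOS1 (r = 0.820) and CD99 (0.791) were among the 3 genes most like CPT1A over the same 25 libraries, again as a description. NANOS1 fell from 16.3 ± 2.81 (SD, n = 3) in WT CTRL to 4.81 ± 0.717 in TFE3 KO CTRL and 5.02 ± 1.02 in DKO CTRL, stood at 12.9 ± 1.30 in TFEB KO CTRL and was at 5.17 ± 0.501 (n = 2) in WT HBSS. CD99, a surface protein, was at 95.4 ± 13.5 in WT CTRL, 60.3 ± 3.004 in TFE3 KO CTRL, 58.4 ± 7.73 in DKO CTRL and 81.5 ± 4.47 in TFEB KO CTRL.

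The CPT1A window (GRCh38.p14, chr11:68844228-68844527, - strand) is printed to set the member that fell in the clones beside SLC27A1. It has no capitals because it holds none of the 4 letter runs searched.
CPT1A: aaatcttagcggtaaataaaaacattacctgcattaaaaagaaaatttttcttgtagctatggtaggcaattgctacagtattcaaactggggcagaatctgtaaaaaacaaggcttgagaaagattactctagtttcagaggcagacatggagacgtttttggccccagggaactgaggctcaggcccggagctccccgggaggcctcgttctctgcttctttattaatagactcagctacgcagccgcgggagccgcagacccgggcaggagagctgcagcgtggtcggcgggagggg

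The plot of knockout effects shows CPT1A apart from the other members in all 3 clones, with and without drug.

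**Figure D2:**
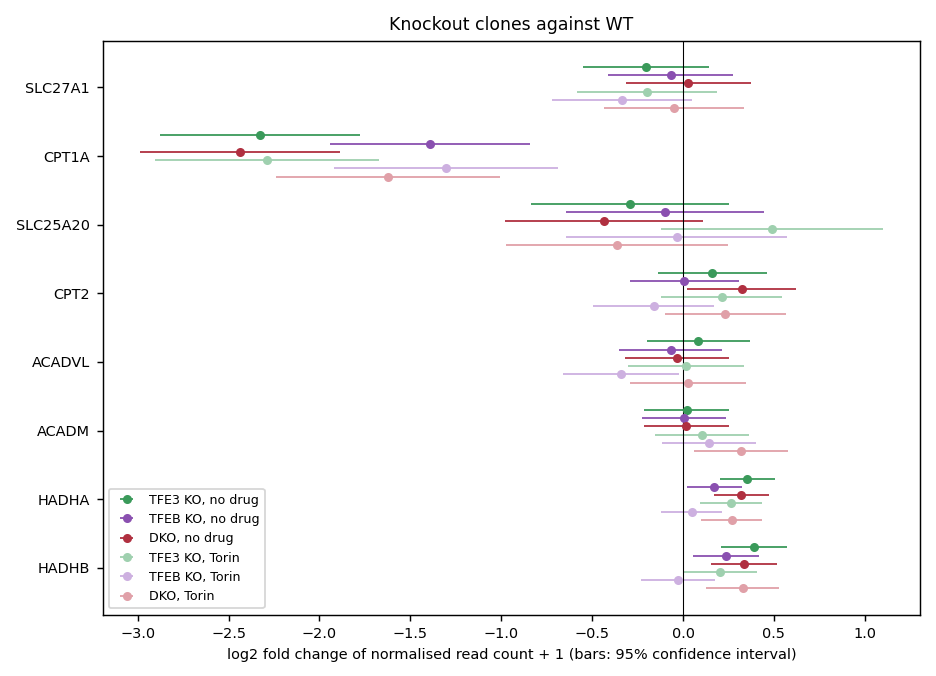
Log2 fold change against WT (x axis, log2 of normalised read count + 1) of each member (y axis) in TFE3 KO, TFEB KO and DKO, without drug (dark) and with Torin (pale), with 95% confidence intervals as bars. CPT1A lies between -2.44 and -1.30, and HADHA and HADHB lie between 0.17 and 0.39 without drug.

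HADHA and HADHB, the subunits of the trifunctional protein, had higher means than WT CTRL in each clone without drug, and passed in TFE3 KO and DKO. HADHA read 216, 232 and 238 in WT CTRL, 284, 303 and 291 in TFE3 KO CTRL and 301, 279 and 278 in DKO CTRL, with no overlap with WT. TFEB KO CTRL, at 272, 242 and 260.0, also lay above all WT CTRL libraries, and below those of TFE3 KO and DKO. HADHB read 74.8, 69.3 and 79.0 in WT CTRL, 99.96, 106 and 87.3 in TFE3 KO CTRL, 89.3, 92.2 and 100.3 in DKO CTRL and 78.3, 89.2 and 96.2 in TFEB KO CTRL. For HADHB the TFE3 KO and DKO controls were above all WT controls and those of TFEB KO overlapped them. The share of all genes without overlap in these comparisons was not counted.

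The log2 fold changes of HADHA were 0.35 ± 0.08 in TFE3 KO (limma adjusted p = 0.00079) and 0.32 ± 0.08 in DKO (adjusted p = 0.0020), and those of HADHB 0.39 ± 0.09 (adjusted p = 0.0023) and 0.33 ± 0.09 (adjusted p = 0.0077). Without WT CTRL replicate 2 the HADHB difference in DKO did not pass (0.28, adjusted p = 0.060). With the duplicated column taken for WT Torin, the HADHA differences did not pass either (adjusted p = 0.056 in TFE3 KO and 0.068 in DKO). In TFEB KO the differences were 0.17 (95% interval 0.02 to 0.32, adjusted p = 0.12) and 0.24 (0.05 to 0.42, adjusted p = 0.069) and did not pass. TFE3 KO against TFEB KO gave 0.18 for HADHA (adjusted p = 0.060) and 0.15 for HADHB (adjusted p = 0.21), so the clones were not shown to differ from each other. No other member passed in a clone without drug: the lowest adjusted p among SLC27A1, SLC25A20, CPT2, ACADVL and ACADM was 0.16, for CPT2 in DKO.

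Counted over the 8 members, 3 passed in TFE3 KO (HADHA and HADHB up, CPT1A down), where 9.52% of all tested genes passed. In DKO the same count of 3, with the same directions, stood beside 13.2% of all genes, and in TFEB KO 1 member, CPT1A, beside 14.9%. With the fold limit only CPT1A passed in each clone, beside 1.52%, 1.82% and 1.68% of all genes. In TFE3 KO and DKO this is a description, since CPT1A met the filter only through WT and TFEB KO libraries. Between TFE3 KO and TFEB KO, 1 of 8 passed, again CPT1A, beside 30.2%, and 0 with the fold limit beside 4.07%. Here the CPT1A log2 fold change depended on the added 1. It was -2.76 with 0.1 added and -2.45 with edgeR on the recovered reads. The median log2 fold change of the 8 was 0.05 in TFE3 KO, -0.03 in TFEB KO and 0.02 in DKO, and that of all genes 0.00 in each.

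Under Torin, HADHA stayed above WT in TFE3 KO (0.26 ± 0.08, limma adjusted p = 0.036) and in DKO (0.27 ± 0.08, adjusted p = 0.028), and HADHB in DKO (0.33 ± 0.10, adjusted p = 0.023). HADHA read 261 and 281 in WT Torin, 297, 323 and 358 in TFE3 KO Torin and 316, 314 and 348 in DKO Torin. These 3 calls rest on single libraries: the adjusted p rose to 0.30 and 0.26 for HADHA and 0.094 for HADHB without WT Torin replicate 2, and to 0.076, 0.064 and 0.16 without WT Torin replicate 3. They also failed without TFE3 KO Torin replicate 2 (HADHA in TFE3 KO, 0.072), replicate 3 (0.20), DKO Torin replicate 2 (HADHB, 0.076) and replicate 3 (HADHA, 0.14, and HADHB, 0.094). Counted over the 7 members other than SLC27A1, 2 passed in TFE3 KO beside 9.81% of all genes, 1 in TFEB KO beside 18.1% and 3 in DKO beside 12.2%. With the fold limit CPT1A alone passed, beside 1.97%, 2.44% and 2.39%, in TFE3 KO and DKO again as a description.

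In HBSS the subunits of the trifunctional protein rose, while CPT1A, SLC25A20 and ACADM fell. HADHA rose to 353 and 369 in HBSS (log2 fold change 0.66 ± 0.08, limma adjusted p = 6.1e-09), and HADHB to 106 and 99.0 (0.46 ± 0.10, adjusted p = 0.00015). SLC25A20, the acylcarnitine carrier, fell from 7.72, 6.73 and 5.27 in WT CTRL to 2.30 and 1.47 in HBSS. Its log2 fold change was -1.40 ± 0.30 (adjusted p = 0.00014), and in summed reads it was 3.56-fold lower (2.13 to 6.34; 17 against 108 reads). ACADM, the medium-chain dehydrogenase, fell from 43.4, 37.4 and 37.9 to 26.2 and 28.7 (-0.51 ± 0.13, adjusted p = 0.00090). None of these 4, which had already passed, overlapped between HBSS and WT CTRL, and the share of all genes that did not overlap was not counted.

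CPT2 (-0.18, 95% interval -0.52 to 0.15), ACADVL (-0.13, -0.44 to 0.19) and SLC27A1 did not pass with HBSS, and CPT1A fell as given above. In all 5 of 8 members passed with HBSS, 2 up and 3 down, where 48.5% of all genes passed, so that passing was common across the table. With the fold limit 2 of 8 passed, CPT1A and SLC25A20, where 13.2% of all genes did. The median log2 fold change of the 8 was -0.15, beside -0.03 over all genes.

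With Torin in WT, 4 of the 7 members other than SLC27A1 passed, where 43.7% of all genes passed, and all 4 changes were small. CPT2, which re-forms acyl-CoA in the mitochondrial matrix, rose from 26.6, 19.0 and 21.7 to 29.3 and 35.1 (0.51 ± 0.17, limma adjusted p = 0.011). HADHB rose to 94.7 and 92.0 (0.33 ± 0.10, adjusted p = 0.0072) and HADHA to 261 and 281 (0.24 ± 0.08, adjusted p = 0.017). ACADM fell to 29.5 and 30.1 (-0.39 ± 0.13, adjusted p = 0.011). The libraries of the groups overlapped in none of the 4, which is a description of members that had already passed. The share of all genes without such overlap was not counted. SLC25A20 read 4.92 and 4.27 (-0.43 ± 0.30, adjusted p = 0.26), below all WT CTRL libraries, and CPT1A and ACADVL did not pass either. Each of the 4 calls was lost without 1 library or another: CPT2 without WT CTRL replicate 2 (adjusted p = 0.068) or WT Torin replicate 3 (0.16), HADHA without WT CTRL replicate 1 (0.066) or WT Torin replicate 3 (0.18), ACADM without WT CTRL replicate 1 (0.059) or WT Torin replicate 2 (0.065), and HADHB without WT Torin replicate 2 (0.061). With the duplicated column taken for WT Torin the CPT2 log2 fold change was 0.19 (adjusted p = 0.51).

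In TFE3 KO 2 of the 7 passed with Torin, beside 51.2% of all genes. CPT2 rose from 22.6, 24.2 and 28.4 to 37.7, 34.7 and 39.5 (0.56 ± 0.15, limma adjusted p = 0.0014). Its libraries did not overlap, and the share of all genes without overlap was not counted. ACADM fell from 40.6, 36.5 and 43.2 to 29.5, 35.2 and 32.0 (-0.31 ± 0.12, adjusted p = 0.023), a call lost without TFE3 KO CTRL replicate 1 (adjusted p = 0.059), CTRL replicate 3 (0.11) or Torin replicate 1 (0.11).

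In TFEB KO 1 of the 7 passed, beside 38.2% of all genes. This was ACADVL, the very-long-chain dehydrogenase, which fell from 33.5, 39.0 and 30.0 to 28.5, 24.3 and 24.8 (-0.38 ± 0.14, limma adjusted p = 0.028). It did not pass without TFEB KO CTRL replicate 1 (adjusted p = 0.051), CTRL replicate 2 (0.16), Torin replicate 2 (0.093) or Torin replicate 3 (0.081), and with DESeq2 the adjusted p was 0.068. ACADVL ends 76 bases from the 3′ end of DVL2, which lies on the opposite strand of chromosome 17. CPT2 in TFEB KO read 18.2, 28.5 and 21.4 without and 32.8, 26.2 and 27.1 with Torin (0.34 ± 0.15, adjusted p = 0.064), and passed once TFEB KO CTRL replicate 2 was left out (0.51, adjusted p = 0.011).

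In DKO 4 of the 7 passed, all upward, beside 51.5% of all genes. CPT2 rose from 31.9, 22.1 and 31.1 to 40.8, 37.9 and 35.0 (0.42 ± 0.15, limma adjusted p = 0.016), HADHB from 89.3, 92.2 and 100.3 to 108, 121 and 124 (0.32 ± 0.09, adjusted p = 0.0026) and HADHA to 316, 314 and 348 (0.19 ± 0.08, adjusted p = 0.033), with CPT1A as described. HADHB kept its call without each single library in turn. CPT2 lost it without DKO CTRL replicate 2 (adjusted p = 0.19) or DKO Torin replicate 1 (0.069), and HADHA without DKO CTRL replicate 2 (0.097), DKO CTRL replicate 3 (0.090) or DKO Torin replicate 3 (0.17). SLC25A20 read 2.15, 2.47 and 6.49 in DKO Torin and did not pass, but without DKO Torin replicate 3 it fell by 0.75 on the log2 scale (adjusted p = 0.025).

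The Torin responses of the clones were compared with that of WT directly. None of the 7 members other than SLC27A1 passed in TFE3 KO, TFEB KO or DKO, where 1.08%, 1.19% and 0.508% of all genes passed (limma), and 1399, 1775 and 1279 genes had an unadjusted p under 0.05. None of the 7 had an unadjusted p under 0.05, and edgeR and DESeq2 on the recovered reads also gave 0 calls among them. The lowest adjusted p was 0.38, for HADHB in TFEB KO (-0.26, 95% interval -0.53 to 0.01). The intervals of CPT2 were -0.40 to 0.50, -0.62 to 0.28 and -0.54 to 0.36 in the order of the clones, which is wide beside its response of 0.51 in WT. A count of calls in a clone that differs from the count in WT is therefore no sign that its response differed.

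The plot of treatment effects sets HBSS beside the 4 Torin responses.

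**Figure D3:**
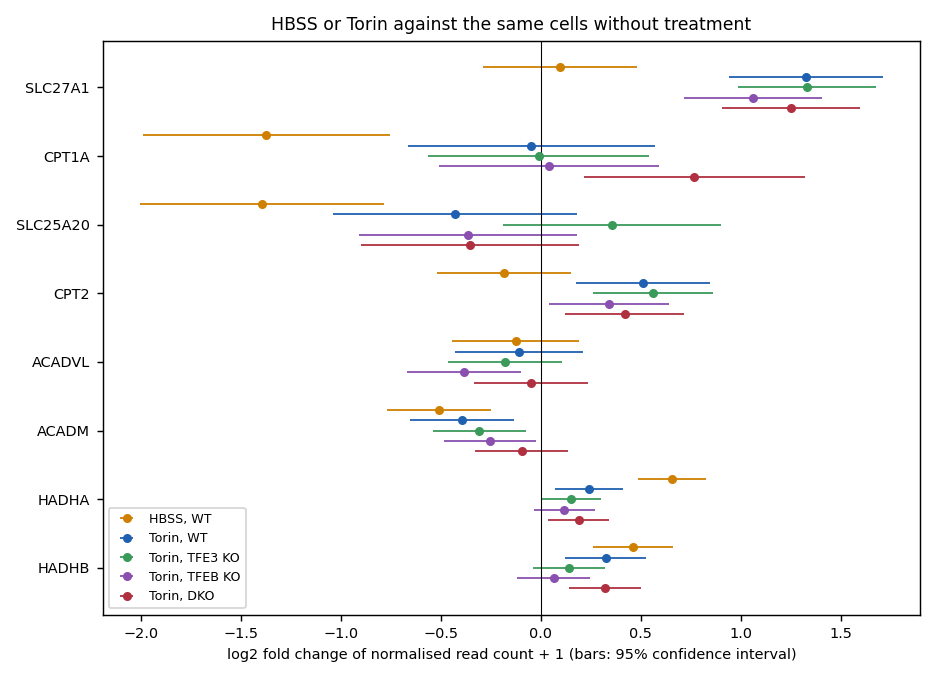
Log2 fold change with treatment (x axis, log2 of normalised read count + 1) of each member (y axis), for HBSS in WT and for Torin in the 4 genotypes, each against its own control, with 95% confidence intervals as bars. SLC27A1 lies between 1.06 and 1.33 for Torin and at 0.10 for HBSS, and CPT1A and SLC25A20 lie at -1.37 and -1.40 for HBSS.

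HBSS and Torin were also set against each other in WT. Of the 7 members other than SLC27A1, 4 passed, beside 49.1% of all genes: HADHA was higher in HBSS (0.41 ± 0.09, limma adjusted p = 0.00022), and CPT1A (-1.32 ± 0.34, adjusted p = 0.0010), CPT2 (-0.69 ± 0.18, adjusted p = 0.0015) and SLC25A20 (-0.97 ± 0.33, adjusted p = 0.014) were lower. With the fold limit 1 of the 7 passed, CPT1A, beside 16.5%. SLC27A1 had a log2 fold change of -1.23, given without a test because its Torin libraries brought it onto the list. SLC25A20 did not pass without WT HBSS replicate 2 (adjusted p = 0.13) or WT Torin replicate 2 (0.080), and CPT1A did not with 0.1 added (0.091). If the duplicated column was taken for WT Torin, 1 member was left past the threshold, CPT1A.

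ACADVL and ACADM passed against WT in no clone, except that ACADM in DKO under Torin did when the duplicated column was taken for WT Torin (0.36, limma adjusted p = 0.029). Over all 25 libraries ACADVL ranged from 24.3 to 42.4 and ACADM from 26.2 to 43.4. CPT1A, by contrast, ran from 0 to 5.66. Within 1000 bases of a 3′ end, the annotation places RABGGTB on the same strand at ACADM on chromosome 1, CZIB on the other strand at CPT2 and GAREM2 on the other strand at HADHA.

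HADHA and HADHB are neighbours on chromosome 2 on opposite strands. Their RefSeq starts lie 307 bases apart, at 26244632 for HADHA and 26244939 for HADHB, and their start-site windows share 194 bases. The pair correlated over the 25 libraries (Pearson r = 0.754, Spearman rho = 0.733), a description over libraries that share genotype, treatment and scaling. The HADHA window (GRCh38.p14, chr2:26244583-26244882, - strand) is printed because it also covers most of that of HADHB, and capitals mark GGGCGG.
HADHA: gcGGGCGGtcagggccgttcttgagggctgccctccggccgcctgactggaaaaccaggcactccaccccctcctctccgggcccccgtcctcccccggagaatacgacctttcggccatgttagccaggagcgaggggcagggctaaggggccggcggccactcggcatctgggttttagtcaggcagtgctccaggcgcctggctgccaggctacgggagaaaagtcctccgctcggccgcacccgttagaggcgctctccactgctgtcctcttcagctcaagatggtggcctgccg

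The plot of HADHA against HADHB shows the WT CTRL libraries in the lower left corner.

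**Figure D4:**
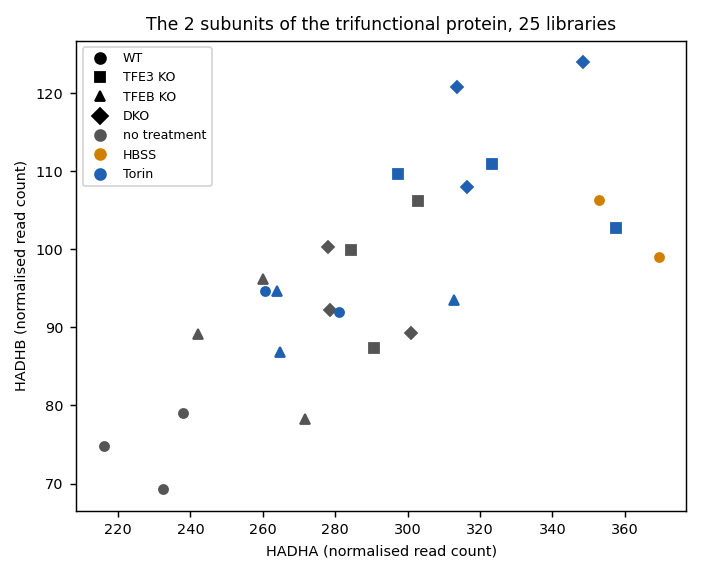
Normalised read count of HADHB (y axis) against that of HADHA (x axis) in 25 libraries, with shapes for genotype and colours for treatment. The 3 WT CTRL libraries lie at 216 to 238 for HADHA and 69.3 to 79.0 for HADHB, and the HBSS libraries at 353 and 369 for HADHA.

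Around the 8 members, 77 further genes of fatty acid handling were listed with earlier results known, and 60 of them were tested. CD36, SLC27A2, FABP4, FABP5, CPT1B, PPARG and ACADL were among those not in the table. With HBSS 10 were higher and 16 lower, beside 48.5% of all genes that passed. With Torin 13 were higher and 16 lower in WT (43.7% of all genes), 16 and 16 in TFE3 KO (51.2%), 9 and 16 in TFEB KO (38.2%), and 15 and 16 in DKO (51.5%). The median log2 fold changes were -0.03, -0.08, 0.09, 0.01 and 0.03, beside -0.03, 0.00, 0.02, 0.00 and 0.02 over all genes. The list moved in both directions and its median stayed near that of all genes.

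By function, and beside the 48.5% of all genes that passed with HBSS and the 43.7% with Torin in WT, the counts were small and are given as a description. HBSS raised 0 and lowered 2 of 5 genes of uptake and binding, raised 1 of 5 of acyl-CoA activation, raised 1 of 4 of the rest of the carnitine shuttle, and raised 2 and lowered 4 of 14 of mitochondrial oxidation. It raised 1 and lowered 5 of 10 of peroxisomal oxidation, raised 4 and lowered 1 of 10 of malonyl-CoA and transcriptional control, lowered 3 of 9 of lipid stores, and raised 1 and lowered 1 of 3 of ketone bodies. Torin in WT raised 2 and lowered 1 of uptake and binding, raised 1 and lowered 2 of activation, raised 2 of the shuttle, and raised 3 and lowered 4 of mitochondrial oxidation. It lowered 3 of peroxisomal oxidation, raised 2 and lowered 3 of control genes, raised 2 and lowered 2 of lipid stores, and raised 1 and lowered 1 of ketone bodies.

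SLC27A3, SLC27A4 and SLC27A5, further FATP transporters, were in the table. SLC27A3 fell with HBSS from 6.47 ± 0.670 (SD, n = 3) to 2.88 ± 0.813 (n = 2; -0.96, limma adjusted p = 0.00086) and rose with Torin to 13.6 ± 0.274 (0.97, adjusted p = 0.00096). Its Torin log2 fold change was 0.94 in TFE3 KO (adjusted p = 0.00026), 1.29 in the double knockout (adjusted p = 2.1e-06), and it stood at 0.47 in TFEB KO (adjusted p = 0.079). SLC27A4 went the other way from SLC27A1 in every genotype, with Torin log2 fold changes of -0.81 in WT (adjusted p = 0.0022), -1.42 in TFE3 KO (adjusted p = 3.4e-08), -1.04 in TFEB KO (adjusted p = 3.2e-05) and -0.91 in DKO (adjusted p = 0.00012), and it fell with HBSS as well (-1.05, adjusted p = 8.7e-05). SLC27A5 passed in none of these.

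PPARGC1A and PPARA rose with HBSS and did not pass with Torin in WT. PPARGC1A, a coactivator of mitochondrial genes, was at 27.6 ± 2.38 in WT CTRL, 204 ± 6.35 in HBSS and 26.2 ± 5.54 in Torin. PPARA, the nuclear receptor of fat oxidation, was at 22.7 ± 1.62, 69.8 ± 3.75 and 24.7 ± 5.69. Their HBSS log2 fold changes were 2.84 (limma adjusted p = 3.1e-20) and 1.58 (adjusted p = 3.7e-11), and PPARGC1B, a relative of PPARGC1A, fell (-1.06, adjusted p = 0.00013).

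Torin raised ACAD10, an acyl-CoA dehydrogenase, past the threshold in all 4 genotypes, by log2 fold changes of 1.54 in WT, 1.53 in TFE3 KO, 1.24 in TFEB KO and 0.95 in DKO. ACACA, which makes the malonyl-CoA that inhibits CPT1, fell with Torin in WT from 30.1 ± 5.95 to 14.0 ± 0.611 (-1.03, limma adjusted p = 1.6e-05) and in the clones by 0.54, 0.69 and 0.41 on the log2 scale, and it did not move with HBSS (0.03, adjusted p = 0.92). ABCD3, a peroxisomal transporter, also fell in WT (-1.03, adjusted p = 5.6e-08). CPT1C, the brain-type relative of CPT1A, was higher in DKO Torin (13.9 ± 0.831) than in WT Torin (4.71 ± 0.037; 1.38, adjusted p = 0.00023), the opposite direction to CPT1A.

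Against WT without drug, 1 of the 60 was higher and 3 lower in TFE3 KO (9.52% of all genes passed), 6 and 1 in TFEB KO (14.9%), and 5 and 3 in DKO (13.2%). Between TFE3 KO and TFEB KO 9 were higher and 12 lower in TFE3 KO (30.2% of all genes), among them PRKAA2, a catalytic subunit of AMPK (-1.35, limma adjusted p = 3.7e-09), and PPARGC1A (-1.104, adjusted p = 2.6e-08).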

How the data were processed

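The members and gene lists were chosen with earlier results of these data known. The deposited table gave a signal per gene symbol, reads normalised by the authors with edgeR on the CPM scale. Per the submitters' processing notes and the study's methods, QuantSeq Forward reads were trimmed with cutadapt 2.10 (trim_galore), checked with FastQC 0.11.9 and mapped to hg38 with STAR 2.7.8a. The counter, strand setting, scaling and gene filter are not given in the sources used here. In every column 100% of values were whole multiples of 1 read (tolerance 0.01), so reads were recovered.

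Of 13523 rows, 64 were spike-in controls (3.21% to 5.96% of reads) and were left out of depths and tests. Their share was 3.21% to 3.85% in libraries without Torin and 3.80% to 5.96% in those with Torin. The part of this shift in the Torin changes of the members was not tested. The identical pair of columns was left out of the fit. Genes that reached a value of 1 in 3 or more libraries were fitted in 1 linear model of log2(value + 1) over 25 libraries (limma 3.58.1, eBayes with trend and robust, R 4.3.3), tested 2-sided in 16 contrasts. The script was tested on simulated data. Reads of CPT1A and SLC25A20 were also compared as ratios of summed reads with exact conditional 95% intervals. Named genes were all 8 members, from the context lists at most 2 higher and 2 lower genes per comparison past the fold limit with a mean of at least 5 (SLC27A5, and values of these genes in other comparisons, were added after their values were seen), and the 3 genes most like SLC27A1 and CPT1A. The settings varied were the pseudocount (0.1), the filter (none, or a minimum of 5), median-of-ratios scaling, edgeR 4.0.16 and DESeq2 1.42.0 on recovered reads, only the groups compared, the replicate number as a block, the duplicated column kept under either or both labels, and each library left out. Keeping the spike-in rows was added after seeing the data. Results of 2 named genes are not reported here.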

Additional observations from a re-analysis of the deposited data

Results flagged for a closer look

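Rows outside the comparisons carried a signal. Of the 61 spike-in rows that passed the filter when kept, 32 were higher and 13 lower with Torin in WT (limma, adjusted p under 0.05). The counts were 38 and 13 in TFE3 KO, 24 and 14 in TFEB KO, and 36 and 14 in DKO. Keeping these rows changed no call of a member.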

How the results depend on the processing

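Of the 35 member results that passed, none changed sign in 420 alternative values, 389 kept their side of the threshold and 31 did not, and 35 of 185 values with 1 library left out no longer passed. Of the 86 that did not pass, 14 of 1623 alternative values passed and 111 changed sign without passing. These counts include SLC27A1 in HBSS against Torin and in the clones against WT Torin, where it is described without a test. The number of members past the threshold moved as follows, and the cause was not tested unless libraries were added or removed. With Torin in TFEB KO 1 became 0 with DESeq2 and with the duplicated column kept as WT Torin replicate 1 or under both labels. With that column in those roles Torin in DKO gave 2 in place of 4. For HBSS against Torin, with SLC27A1 left aside, CPT1A alone still passed in the first role, and CPT1A and HADHA in the second. With a pseudocount of 0.1, TFEB KO against WT gave 0 in place of 1 without drug and 0 in place of 1 with Torin. TFE3 KO against WT with Torin gave 1 in place of 2 with median-of-ratios scaling, edgeR, DESeq2 and the column in either of those roles. Leaving out 1 library gave 2 to 4 members with Torin in WT, 1 to 2 in TFE3 KO, 0 to 1 in TFEB KO and 2 to 4 in DKO, 1 to 2 for TFEB KO against WT without drug, and under Torin 1 to 2 for TFE3 KO and 1 to 3 for DKO against WT. The replicate numbers did not pair the libraries (correlations of deviations -0.192 to 0.146 in 32 pairs), and the replicate block gave 2 in place of 1 for TFE3 KO against TFEB KO (HADHA, 0.18, adjusted p = 0.048) and changed no other count by over 1.5 times.

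Counts over all genes moved more. The TFEB and MITF values of the duplicated column lay near those of WT HBSS, as given above. Kept as WT HBSS replicate 3, this column gave 6879 genes past the threshold for HBSS against Torin and 1222 for TFE3 KO without drug. With the duplicated column as WT Torin replicate 1, the genes past the threshold went from 6381 to 2684 for HBSS against Torin, and without drug from 1237 to 486 in TFE3 KO, 1931 to 779 in TFEB KO, 1718 to 801 in DKO and 3920 to 2500 between the single knockouts. Against WT Torin they went from 1274 to 1962, 2353 to 1488 and 1581 to 2600, and for the differences in Torin response from 140 to 24, 154 to 4 and 66 to 21. With the column under both labels these counts were 3525, 500, 802, 826, 2562, 2036, 1521, 2702, 41, 4 and 28. With edgeR the differences in response gave 90 in TFE3 KO and 43 in DKO, and with only the groups compared 29 in DKO. Depth limits CPT1A most, whose TFE3 KO and DKO controls hold 0 to 4 reads per library.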
